A study of Bos taurus with 14 samples.

Results

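The results below concern 4 enzymes of glycolysis, GAPDH, GPI, LDHA and PGK1, measured in bovine endometrial stromal cells (BES) and bovine granulocytes that were incubated for 2 h with interferon tau (IFNT) or with phosphate-buffered saline (PBS). Members were the probes of the Agilent array used whose name or description in the scanner files gives 1 of these 4 genes. They made up 105 of 15208 non-control probes and 4 of 5868 distinct gene symbols. GAPDH had 102 probes, and GPI, LDHA and PGK1 had 1 probe each. A probe for a deacylase of glycosylphosphatidylinositol anchors, abbreviated GPI in its description, was left out as another gene. The brightest probe of a gene stands for it below, which for GAPDH was ABR336.

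The 14 arrays fell into 4 groups of Bos taurus cells in vitro, namely 4 arrays of granulocytes with IFNT, 4 of granulocytes with PBS, 3 of BES with IFNT and 3 of BES with PBS. The labels give 1 mg/mL as the IFNT dose, a unit that could not be checked here and that is high for an interferon, and they name no strain, animal, age or sex, and they do not say how either kind of cell was obtained. Nothing in them ties a replicate to an animal or culture of its own, and the errors and p-values below therefore measure only the spread between these samples, which may be technical. Each array was hybridised with Cy3-labelled RNA from 1 sample, prepared from 400 ng of total RNA. Levels are log2 processed signals, and on each array the 75th percentile over non-control probes is set to 0.

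Glycolysis splits glucose into pyruvate in the cytosol and yields ATP and NADH. GPI (glucose-6-phosphate isomerase) turns glucose-6-phosphate into fructose-6-phosphate near the start of the pathway. GAPDH (glyceraldehyde-3-phosphate dehydrogenase) reduces NAD+ to NADH, and PGK1 (phosphoglycerate kinase 1) follows it and forms ATP. LDHA, a subunit of lactate dehydrogenase, reduces pyruvate to lactate and returns NADH to NAD+. Neutrophils, the main granulocytes of blood, draw most of their ATP from glycolysis, and GAPDH is widely used as a reference gene for expression measurements.

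The GAPDH probes held 3 different sequences. One 60-base sequence was spotted 100 times on every array, ABR336 and ABR7083 carried 1 sequence each, and no pair of the 3 sequences shared more than 7 consecutive bases on either strand. The probes on which the results for GAPDH and GPI turn are shown 5′ to 3′ as given in the scanner files.
GAPDH, 100 copies: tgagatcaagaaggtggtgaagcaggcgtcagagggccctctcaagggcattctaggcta
GAPDH, ABR336: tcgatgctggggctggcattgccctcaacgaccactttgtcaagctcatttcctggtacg
GPI, ABR2021: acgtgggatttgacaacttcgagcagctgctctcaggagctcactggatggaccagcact
All 3 held 33 G or C bases of 60, and 95.2% of all probes held 33 or fewer. The LDHA and PGK1 probes held 24. The scanner file names the PGK1 probe from an expressed sequence tag, and its gene name is used here as the file gives it. No position in the bovine genome is stated, because the files name no genome build.

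All 4 representative probes were well above background and unsaturated on all 14 arrays. Between 66.4% and 70.9% of probes were well above background on granulocyte arrays and between 71.6% and 76.1% on BES arrays, and arrays of 1 group correlated at 0.991 to 0.996 across probes. Every granulocyte array lay on 1 slide and every BES array on another. On the granulocyte slide the IFNT samples occupied array row 2 and the PBS samples array row 1, so position and treatment cannot be told apart there. On the BES slide row 2 held the 3 IFNT samples and PBS replicate 3, and row 1 held PBS replicates 1 and 2. Of 8 interferon-stimulated genes, all rose in granulocytes and 7 rose in BES. RSAD2, an antiviral protein, rose by 4.70 ± 0.10 in granulocytes and 6.10 ± 0.17 in BES on the log2 scale (SE).

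The labelled cell types were set against their markers. The 9 granulocyte markers named on the array were all well above background on granulocyte arrays, where they took 1.48% to 1.59% of the summed signal with IFNT and 1.52% to 1.75% with PBS. On BES arrays they took 0.00251% to 0.00295% of the signal. The 9 stromal markers took 0.518% to 0.530% on BES arrays with IFNT and 0.477% to 0.5002% with PBS, against 0.0445% to 0.0491% on granulocyte arrays. Of these 9, 7 were called lower and 2 higher in granulocytes than in BES with PBS, and 7 and 1 with IFNT. The epithelial markers KRT8, KRT19, MUC1 and CDH1 were also well above background on every BES array. EPCAM was above it on no BES array but, like KRT19 and CDH1, on every granulocyte array. On BES arrays the 5 together took 0.672% to 0.682% of the signal with IFNT and 0.648% to 0.719% with PBS. On granulocyte arrays 5 monocyte and macrophage markers took 0.0466% to 0.0496% with IFNT and 0.0488% to 0.0582% with PBS, and 9 T and NK cell markers took 0.0276% to 0.0296% with IFNT and 0.0287% to 0.0308% with PBS. Endothelial and smooth muscle markers (5 genes) on BES arrays took 0.0930% to 0.108% with IFNT and 0.108% to 0.127% with PBS. B cell markers (3 genes) on granulocyte arrays took 0.00452% to 0.00472% with IFNT and 0.00416% to 0.00439% with PBS, and platelet and erythroid markers (5 genes) took 0.0107% to 0.0111% with IFNT and 0.0113% to 0.0121% with PBS. The part of these other cell types in the results was not tested. In bulk RNA, fewer cells of a type and less RNA per cell cannot be told apart.

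GAPDH fell in granulocytes with IFNT relative to the 75th percentile and showed no called change in BES. Relative to its own 100 copies ABR336 differed by 0.08 in granulocytes. That base is GAPDH itself and takes out any change its probes share, so it cannot show whether GAPDH fell. Its level (ABR336) in granulocytes was 5.79, 5.85, 5.79 and 5.78 with IFNT, against 6.06, 6.10, 6.20 and 6.06 with PBS. Every IFNT array lay below every PBS array, with a gap of 0.21 between the groups. Groups lay apart in this direction for 26.8% of all probes tested in granulocytes. The difference was −0.30 ± 0.05 (SE, n = 4 and 4), a level 0.812 times that with PBS (limma, adjusted p 0.00100). Across all 10379 probes tested in granulocytes 44.6% were called, 27.4% as lower and 17.2% as higher, so a called fall was common there, and the median probe changed by −0.05. The fall moved with array row as well as with treatment, and the part of the row was not tested.

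In BES the GAPDH level was 5.77, 5.77 and 5.75 with IFNT, against 5.85, 5.81 and 5.78 with PBS. The groups touched without overlapping, the lowest PBS array lying 0.0065 above the highest IFNT array. Groups lay apart in this direction for 21% of all probes tested in BES. The difference was −0.05 ± 0.04 (SE, n = 3 and 3; limma, adjusted p 0.502), with a 95% confidence interval from −0.15 to 0.05. Of the 11309 probes tested in BES 3.66% were called, 1.37% as lower and 2.29% as higher. The response in granulocytes minus the response in BES was −0.25 ± 0.06 (adjusted p 0.00852), and 14.8% of the 12046 probes in that contrast were called as lower in granulocytes and 11.7% as higher.

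**Figure D1:**
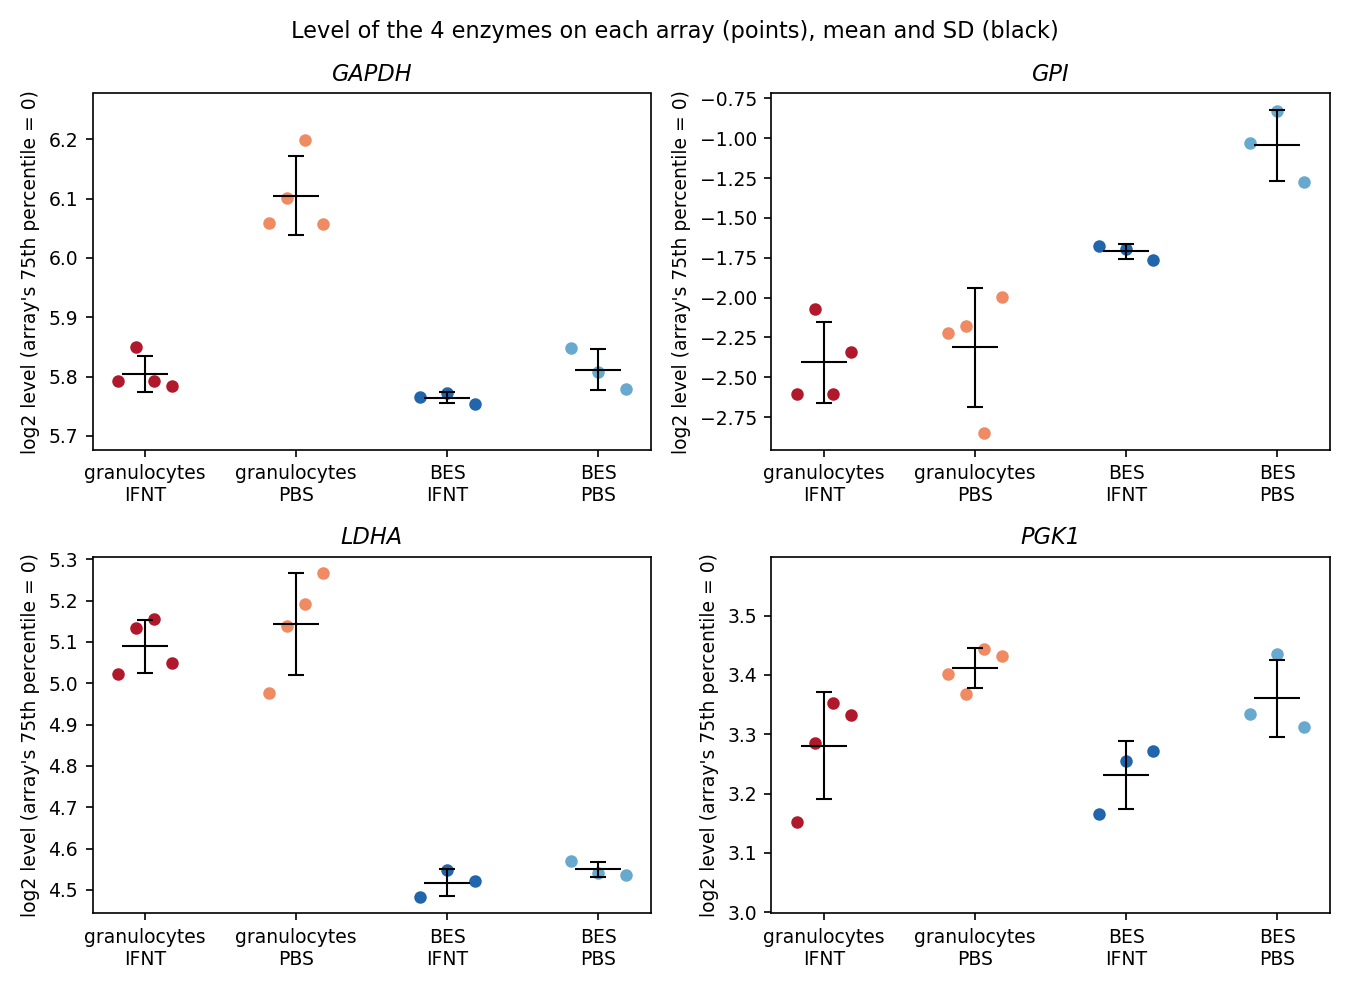
Log2 level of GAPDH, GPI, LDHA and PGK1 on each of 14 arrays (points) with the group mean and SD (black), the array's 75th percentile being 0. GAPDH stands at 5.78 to 5.85 in granulocytes with IFNT and at 6.06 to 6.20 with PBS, GPI in BES at −1.76 to −1.67 with IFNT and at −1.28 to −0.83 with PBS, and LDHA differs between cell types but not visibly between treatments. The vertical scale differs between panels.

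The other GAPDH probes fell in granulocytes too, relative to the 75th percentile. The mean of the 100 copies was 2.84, 2.93, 2.88 and 2.95 with IFNT, against 3.29, 3.23, 3.30 and 3.29 with PBS, and the groups did not overlap. Groups lay apart in this direction for 26.8% of all probes tested in granulocytes. Fitted as 1 feature the mean differed by −0.38 ± 0.04 (adjusted p 1.5e-04). Single copies differed by −0.47 to −0.26, and 100 of 100 were called. ABR7083, the third sequence, differed by −0.20 ± 0.05 (adjusted p 0.0135), its level being 0.77 ± 0.05 with IFNT and 0.97 ± 0.08 with PBS (SD, n = 4 each). These spots are not replicates of the condition, since all of them read the same RNA on the same arrays.

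In BES the mean of the copies was 3.23, 3.31 and 3.29 with IFNT, against 3.41, 3.36 and 3.37 with PBS. The groups did not overlap here either, as in this direction for 21% of all probes tested in BES. The difference of −0.10 ± 0.04 did not pass (limma, adjusted p 0.201). Of the single copies 99 of 100 had a difference below 0, in a range from −0.18 to 0.08, and none was called (limma, 27 with an unadjusted p below 0.05, lowest adjusted p 0.116). Over all probes tested in BES, 2874 of 11309 had an unadjusted p below 0.05 (limma). ABR7083 differed by −0.02 ± 0.05 (adjusted p 0.812). For the contrast between the responses the mean of the copies gave −0.28 ± 0.06 (adjusted p 0.00333), with 94 of 100 copies called as lower, and ABR7083 gave −0.18 ± 0.07 (adjusted p 0.0775).

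The 100 copies also show how far identical spots on 1 array differ. The SD between copies was 0.093 to 0.169 on the log2 scale, which is a coefficient of variation of 6.37% to 11.8% of the signal. Copies that were bright on 1 array were bright on the others. Their deviations from the array mean correlated at 0.845 to 0.980 between arrays of the same slide and at 0.710 to 0.909 between arrays of different slides (43 and 48 pairs of arrays, a description over spots that share their position). The differences between treatments varied less from copy to copy than the levels did, with an SD of 0.033 in granulocytes and 0.037 in BES.

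**Figure D2:**
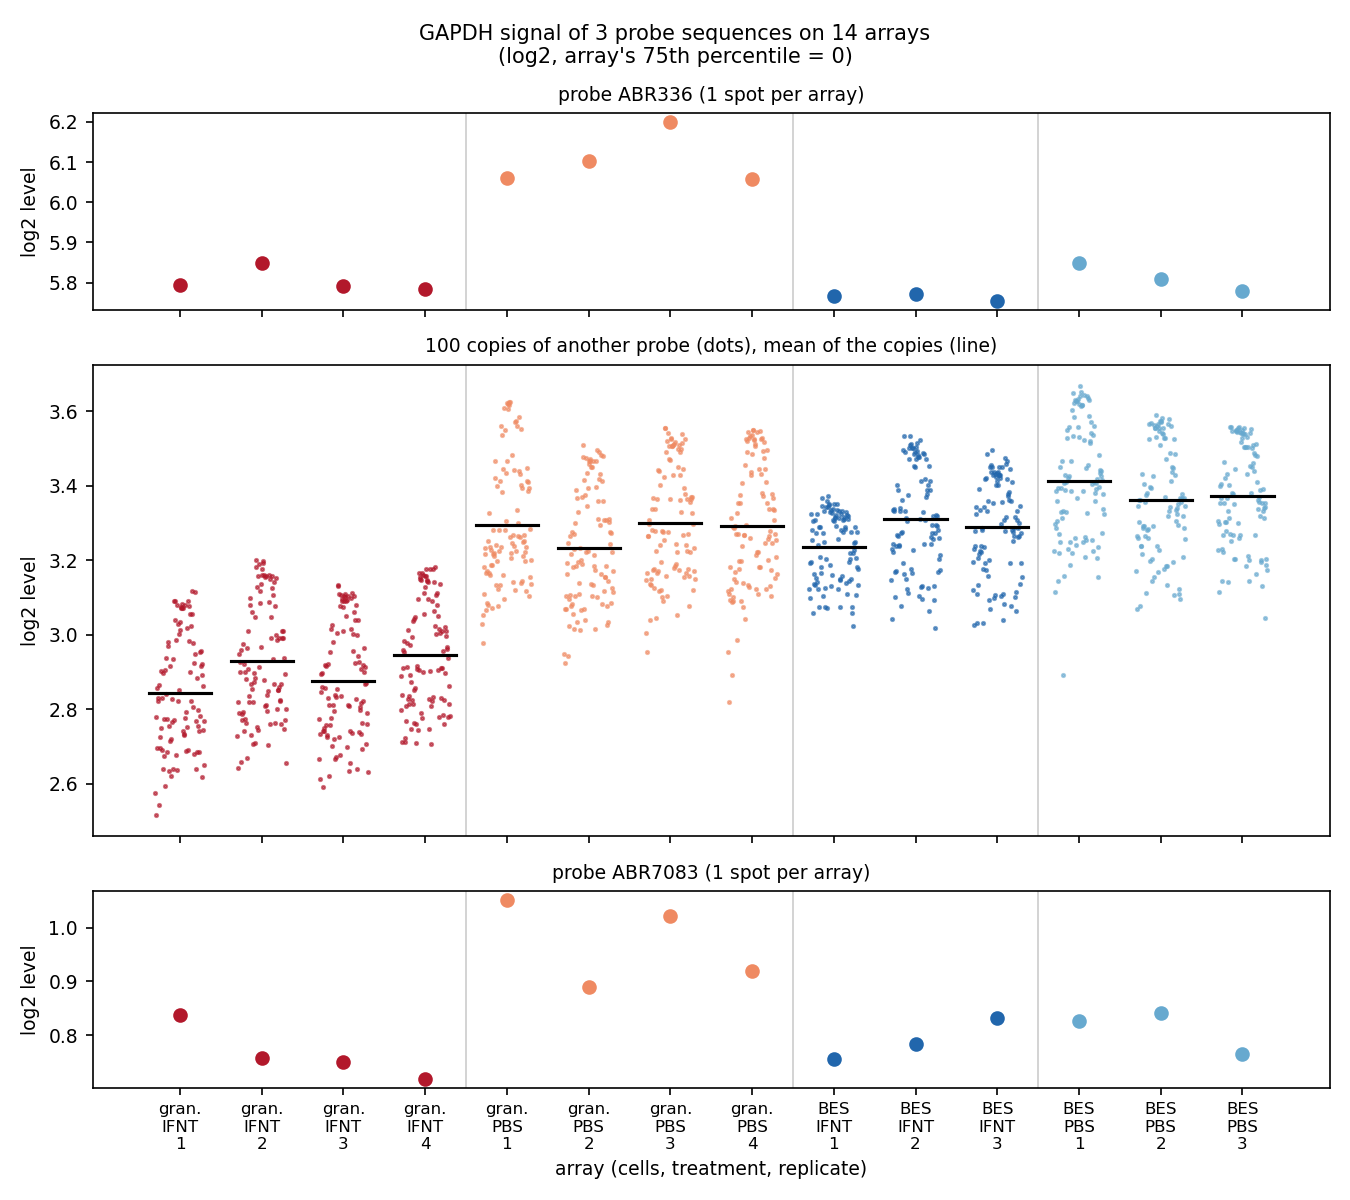
GAPDH log2 level on each array for ABR336 (top), the 100 copies of another sequence (middle, dots, with their mean as a line) and ABR7083 (bottom), the array's 75th percentile being 0. In granulocytes all 3 sequences are lower with IFNT than with PBS (log2 differences −0.30, −0.38 and −0.20). Scaling to the copies gives 0.08 for ABR336, but that base is GAPDH itself and takes out any fall its probes share. ABR336 and ABR7083 are higher in granulocytes with PBS than in BES with PBS, by 0.29 and 0.16, while the copies are lower; quantile normalization turns the sign for ABR336 (−0.69).

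GPI was the member that fell in BES. Its level was −1.67, −1.69 and −1.76 with IFNT, against −1.03, −0.83 and −1.28 with PBS. The 3 IFNT arrays lay close together and below all PBS arrays, with a gap of 0.40. Groups lay apart in this direction for 21% of all probes tested in BES. The difference was −0.67 ± 0.11 (SE, n = 3 and 3), a level 0.631 times that with PBS (limma, adjusted p 0.0327, 95% confidence interval −0.93 to −0.40). Only 0.539% of the probes tested in BES had a lower or equal difference.

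That call was near the threshold. It was kept without PBS replicate 3 (−0.78, adjusted p 0.00836) and lost without any other single array, where the difference was −0.68 to −0.56 and the adjusted p 0.0519 to 0.121. PBS replicate 3, the PBS sample in the array row of the IFNT samples, had a GPI level 0.35 below the mean of the other PBS arrays, and within that row the difference was −0.43. With array row as a covariate the adjusted p was 0.178, without the filter on low signals 0.107 and with all 14 arrays fitted jointly 0.102. The 1119 tested probes with the same number of G or C bases as GPI had a median difference of −0.09 in BES and a 5th percentile of −0.45, against a median of −0.02 over all probes tested. The part of base content and of array row in the GPI result was not tested further.

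In granulocytes GPI stood at −2.60, −2.07, −2.61 and −2.34 with IFNT, against −2.22, −2.18, −2.85 and −1.999 with PBS. The groups overlapped over most of their range. The difference was −0.09 ± 0.19 (adjusted p 0.736), with a 95% confidence interval from −0.54 to 0.35, and the difference of −0.67 seen in BES lay outside that interval. Without PBS replicate 4 it was 0.01. The response in granulocytes minus that in BES was 0.57 ± 0.27 and did not pass (adjusted p 0.148), so the responses of the cell types are not shown to differ for GPI.

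PGK1, the enzyme directly after GAPDH, was slightly lower with IFNT in both cell types without passing the test. Its level in granulocytes was 3.15, 3.28, 3.35 and 3.33 with IFNT, against 3.40, 3.37, 3.44 and 3.43 with PBS. In BES it was 3.17, 3.26 and 3.27 with IFNT, against 3.33, 3.43 and 3.31 with PBS. In both cell types every IFNT array lay below every PBS array, by gaps of only 0.014 in granulocytes and 0.040 in BES. The difference was −0.13 ± 0.05 in granulocytes (adjusted p 0.0843) and −0.13 ± 0.05 in BES (adjusted p 0.204). In granulocytes it passed when all 14 arrays were fitted together (adjusted p 0.0498), and it was above 0 when scaled to the GAPDH copies. Groups lay apart in this direction for 26.8% of all probes tested in granulocytes and for 21% in BES, and in the opposite direction for 16.8% and 12.5%. The contrast between the responses was −0.00 ± 0.08 (adjusted p 0.993), with a 95% confidence interval from −0.17 to 0.17.

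LDHA showed no called change with IFNT. In granulocytes it stood at 5.02, 5.13, 5.16 and 5.05 with IFNT, against 4.98, 5.14, 5.19 and 5.27 with PBS. In BES it stood at 4.48, 4.55 and 4.52 with IFNT, against 4.57, 4.54 and 4.54 with PBS. The groups overlapped in both cell types. The difference was −0.05 ± 0.07 in granulocytes (adjusted p 0.572; 95% confidence interval −0.21 to 0.10) and −0.03 ± 0.04 in BES (adjusted p 0.661; −0.13 to 0.07). The contrast between the responses was −0.02 ± 0.09 (adjusted p 0.898).

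The members differed in how their levels were ordered over the groups. GAPDH by ABR336 averaged 5.80 ± 0.03 in granulocytes with IFNT, 6.10 ± 0.07 in granulocytes with PBS, 5.76 ± 0.01 in BES with IFNT and 5.81 ± 0.04 in BES with PBS (SD, n = 4, 4, 3 and 3). Granulocytes with PBS stood highest, and the next groups in the order, BES with PBS and granulocytes with IFNT, overlapped. LDHA averaged 5.09 ± 0.06 in granulocytes with IFNT and 5.14 ± 0.12 with PBS, both above the BES means of 4.52 ± 0.03 with IFNT and 4.55 ± 0.02 with PBS. GPI ran the other way, with −2.41 ± 0.26 in granulocytes with IFNT, −2.31 ± 0.37 in granulocytes with PBS, −1.71 ± 0.05 in BES with IFNT and −1.04 ± 0.22 in BES with PBS. PGK1 spanned only 3.23 ± 0.06 (BES with IFNT) to 3.41 ± 0.03 (granulocytes with PBS), and each pair of neighbours in its order overlapped.

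In granulocytes minus BES with PBS, LDHA differed by 0.59 ± 0.06 (adjusted p 1.0e-06), GAPDH by 0.29 ± 0.04 (2.7e-05) and GPI by −1.27 ± 0.19 (3.4e-05), while PGK1 differed by 0.05 ± 0.06 (0.390). Of all probes 91.7% were called in this contrast, 46.7% as higher and 45% as lower, so a call says little about the members. With IFNT the differences were 0.57 ± 0.06 for LDHA, 0.04 ± 0.04 for GAPDH, −0.70 ± 0.19 for GPI and 0.05 ± 0.06 for PGK1 (adjusted p 1.5e-06, 0.381, 0.00394 and 0.401), with 92.2% of all probes called, 47.6% as higher and 44.5% as lower. Cell type and slide coincide and cannot be told apart. Only the sign for GPI held under every scaling tried. With quantile normalization GAPDH, LDHA and PGK1 turned lower in granulocytes, with differences of −0.69, −0.50 and −0.46 with PBS and −0.97, −0.53 and −0.40 with IFNT. Scaling to the median turned PGK1 with PBS (−0.10) and GAPDH and PGK1 with IFNT (−0.12 and −0.11).

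The GAPDH sequences themselves disagreed between cell types. With PBS the mean of the 100 copies was lower in granulocytes (3.28 ± 0.03) than in BES (3.38 ± 0.03), a difference of −0.10 ± 0.04 (adjusted p 0.0288) in which 52 of 100 single copies were called lower. ABR7083 was higher in granulocytes by 0.16 ± 0.05 (adjusted p 0.00911), as was ABR336, both relative to the 75th percentile. With IFNT the copies differed by −0.38 ± 0.04 (limma, adjusted p 1.2e-06), ABR7083 by −0.02 ± 0.05 and ABR336 by 0.04 ± 0.04. Of all probes 46.7% were called higher and 45% lower with PBS, and 47.6% and 44.5% with IFNT. A call between cell types thus says little about GAPDH. Whether GAPDH was higher or lower in granulocytes thus depended on the probe sequence. Its fall with IFNT in granulocytes was called for all 3 sequences relative to the 75th percentile. Relative to the copies, a base that is GAPDH itself, ABR336 differed by 0.08.

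The other enzymes of glycolysis gave the setting for the members. In BES, 1 of 13 tested genes of the pathway fell and none rose, where 1.37% of all probes were called lower and 2.29% higher. Of the 13 differences 11 were below 0, with a median of −0.20. The median over all probes was −0.02. Of all probes tested in BES 46.5% had a difference at or below that of LDHA (−0.03). Whether 11 of 13 exceeds the share of all probes below 0 was not tested. PKLR, the pyruvate kinase of liver and red cells, fell by 0.28 (SE 0.05, adjusted p 0.0461), a call lost without any single array other than PBS replicate 3 (adjusted p up to 0.153) and with array row as a covariate (0.355). PGAM1, the phosphoglycerate mutase after PGK1, differed by −0.34 ± 0.07, the phosphofructokinase subunit PFKL by −0.29 ± 0.06 and the aldolase ALDOC by −0.18 ± 0.05, none of them called (adjusted p 0.0566, 0.0642 and 0.0872).

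In granulocytes 3 of 11 tested genes of the pathway rose and 3 fell, where 17.2% of all probes were called higher and 27.4% lower, and the median difference was −0.00 against −0.05 over all probes. PKLR rose by 1.65 ± 0.10 (adjusted p 2.5e-06) and PFKL by 0.52 ± 0.07 (3.9e-04), while PGAM1 fell by 0.85 (SE 0.07, 2.95e-05) and LDHB, the other main subunit of lactate dehydrogenase beside LDHA, fell by 0.67 (SE 0.07, 9.0e-05). GAPDH, PGK1 and PGAM1 catalyse successive steps, and of these PGK1 was not called. Of 13 genes in the contrast between the responses, 4 were higher in granulocytes and 2 lower, among them PKLR (1.93 ± 0.13), PFKL (0.80 ± 0.10), ALDOC (0.39 ± 0.07) and LDHB (−0.67 ± 0.10), with 26.5% of all probes called there. LDHB, which fell in granulocytes, differed by 0.01 ± 0.06 in BES (adjusted p 0.955).

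**Figure D3:**
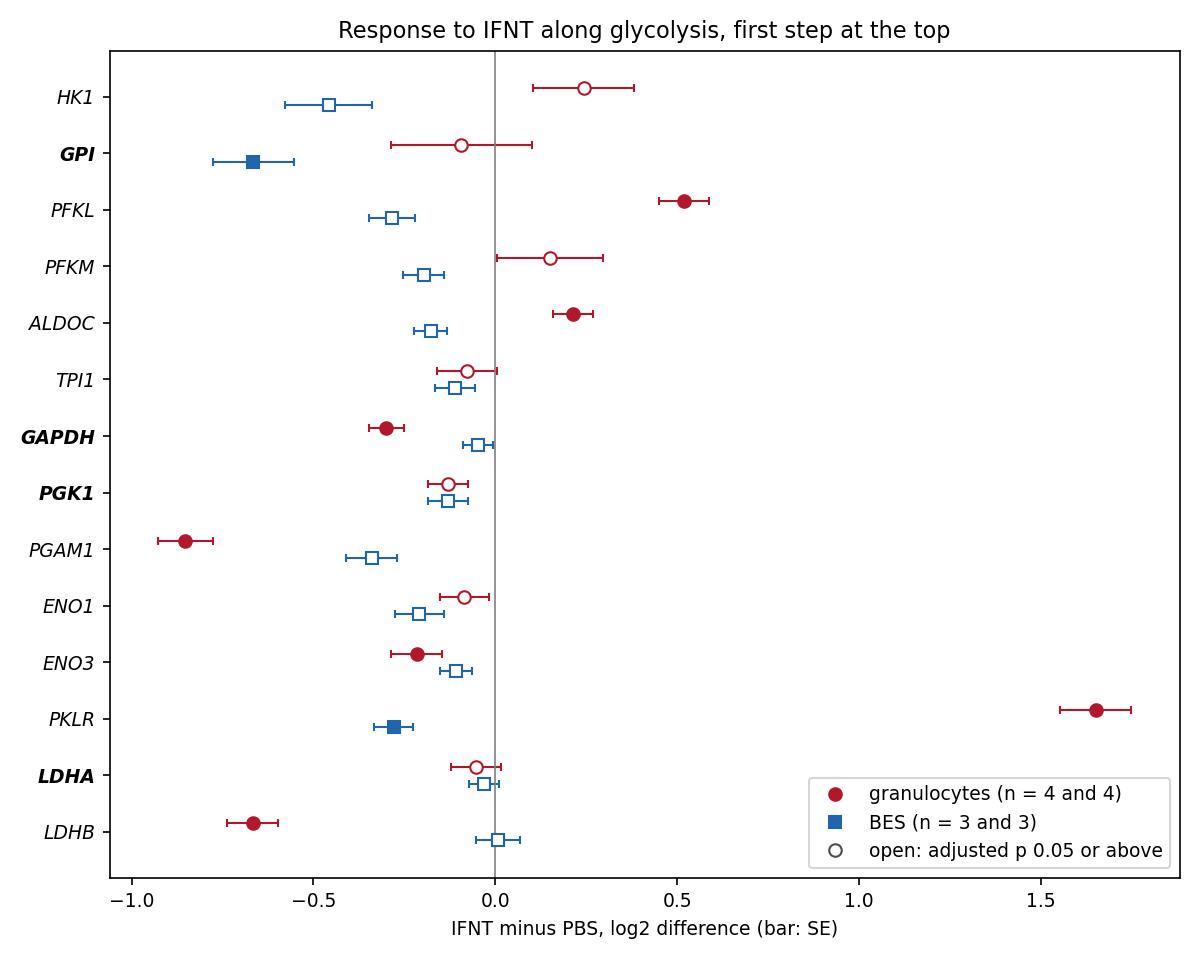
IFNT minus PBS log2 difference (SE as bars) for the 4 members (bold) and the 10 other enzymes of the pathway that were well above background on all 14 arrays, in pathway order from the top, with granulocytes as circles and BES as squares. Filled symbols have an adjusted p below 0.05. In granulocytes GAPDH, PGAM1, ENO3 and LDHB lie to the left and PFKL, ALDOC and PKLR to the right, and in BES GPI and PKLR are filled.

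Other enzymes of the pathway differed in both directions between granulocytes and BES, which lay on different slides. Those with the smallest p (limma) were lower in granulocytes. With PBS, PFKM differed by −4.39 ± 0.13, PFKL by −2.61 ± 0.07, PKLR by −2.55 ± 0.09 and ENO1, an enolase, by −2.07 ± 0.07. With IFNT the differences were −4.04 ± 0.13 for PFKM, −1.81 ± 0.07 for PFKL, −1.98 ± 0.08 for the isomerase TPI1 and −1.95 ± 0.07 for ENO1. Of the 13 tested genes, 4 were called higher in granulocytes and 7 lower with PBS, where 46.7% of all probes were called higher and 45% lower. With IFNT 3 were called higher and 8 lower, where the shares over all probes were 47.6% and 44.5%. Both lower counts hold LDHC, which was well above background on no granulocyte array and has only a bound there.

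Genes that feed or regulate glycolysis were followed in the same way. Of 6 tested regulators and pyruvate enzymes in BES, where 1.37% of all probes were called lower, 1 fell. It was PFKFB3, which makes the activator of phosphofructokinase, by 0.54 (SE 0.08, limma, adjusted p 0.0211). That call was lost in 4 of the 6 fits that left out 1 array (adjusted p up to 0.0776), namely without PBS replicate 1 or 2 or IFNT replicate 2 or 3, and with normexp background correction (−0.22, adjusted p 0.103), array row as a covariate (0.219) or all 14 arrays in the fit (0.301). In granulocytes, where 27.4% of all probes were called lower, 3 of 4 fell, PDHX of the pyruvate dehydrogenase complex by 0.29, the kinase PDK2 by 0.29 and PFKFB2 by 0.26, differences that lay above 0 relative to the GAPDH copies (0.09, 0.09 and 0.12). PFKFB3 differed there by 0.16 ± 0.27 (adjusted p 0.672). The median differences of these lists were −0.08 in BES and −0.27 in granulocytes.

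No gene of glucose and lactate transport passed in BES (limma, 9 tested, 4 with an unadjusted p below 0.05, median −0.10). Such an unadjusted p was found for 2874 of all 11309 probes tested in BES. The lactate carrier SLC16A1 differed there by −0.23 ± 0.07 and its chaperone BSG by −0.29 ± 0.07. In granulocytes 2 of 8 fell (27.4% of all probes were called lower), and the median was 0.01. They were the glucose carriers SLC2A8 (by 0.43) and SLC2A6 (by 0.35, but 0.03 above 0 relative to the GAPDH copies). SLC2A3 differed by 0.33 ± 0.12 and SLC2A1 by −0.21 ± 0.08 (adjusted p 0.0531 and 0.0555).

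Genes of 3 side branches were counted as well, against 44.6% of all probes called in granulocytes and 3.66% in BES. An unadjusted p below 0.05 was found for 2874 of 11309 probes in BES (limma). Of 5 genes of the pentose phosphate pathway, which leaves glycolysis at the substrate of GPI, none passed in BES (limma, 3 with an unadjusted p below 0.05, median 0.04) and PGD fell by 0.24 (SE 0.06; 0.14 above 0 relative to the GAPDH copies) in granulocytes (median −0.04). Of the genes of gluconeogenesis none of 5 passed in BES (2 with an unadjusted p below 0.05, median −0.08). In granulocytes 1 of 6 rose, PCK2 by 0.74 ± 0.06, and the median was −0.06. There 2 fell, FBP2 by 0.55 and G6PC3 by 0.24 (0.14 above 0 relative to the GAPDH copies). Of the genes of glycogen metabolism none of 4 passed in BES (limma, 1 with an unadjusted p below 0.05, median 0.02). Among 5 in granulocytes PYGM fell by 0.28 (0.10 above 0 relative to the GAPDH copies) and GYG1 by 0.55 (median −0.16).

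GAPDH, PGK1 and LDHA are known targets of hypoxia-inducible factors, so genes of that system were counted as well. None of the 3 measured factors, HIF1A, EPAS1 and ARNT, passed in either cell type (limma, 2 with an unadjusted p below 0.05 in BES and 0 in granulocytes). Over all probes, 2874 of 11309 in BES and 5348 of 10379 in granulocytes had such an unadjusted p. HIF1A differed by 0.11 ± 0.05 in granulocytes and 0.15 ± 0.08 in BES. Of 5 other hypoxia targets none passed in BES (3 with an unadjusted p below 0.05, median 0.07). In granulocytes, where 44.6% of all probes were called, 1 rose, the vasodilator peptide ADM by 4.36 ± 0.06 (median of the 5 −0.22). The 3 that fell were the angiogenic factor VEGFA by 0.80 (SE 0.04), BNIP3L by 0.29 and NDRG1 by 0.22. Relative to the GAPDH copies BNIP3L and NDRG1 lay 0.09 and 0.16 above 0. Targets of this system thus went in both directions in granulocytes.

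GAPDH was also set beside 11 other genes in common use as references. In granulocytes 2 of the 11 rose and 3 fell, a share of called genes near the 44.6% of all probes, with differences from −0.47 (YWHAZ) to 0.86 (CLN3) and a median of −0.01. SDHA, a subunit of succinate dehydrogenase, fell by 0.23 but lay above 0 relative to the GAPDH copies (0.15). In BES none of the 11 passed (limma), with differences from −0.22 (RPLP0) to 0.03. Of the 11, 1 had an unadjusted p below 0.05, against 2874 of all 11309 probes tested in BES.

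Because GAPDH is used as a reference, the arrays were also scaled to the mean of the 100 GAPDH copies, a setting chosen after the data had been seen. In granulocytes 7156 probes were then called, 6725 as higher and 431 as lower, against 4633 (1785 and 2848) with the 75th percentile as the base. The median difference of all probes became 0.33. On that scale LDHA and PGK1 were called higher with IFNT in granulocytes, by 0.33 (adjusted p 0.00380) and 0.25 (0.00227), and GPI differed by 0.29 (0.203). In BES 563 probes were called, 520 as higher and 43 as lower, against 414 (259 and 155), and GPI still fell, by 0.56 (0.0490). For the contrast between the responses 3902 probes were called higher and 485 lower, against 1411 and 1786 with the 75th percentile. A difference on either scale is relative to its base, and no measure of absolute RNA amount was used.

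**Figure D4:**
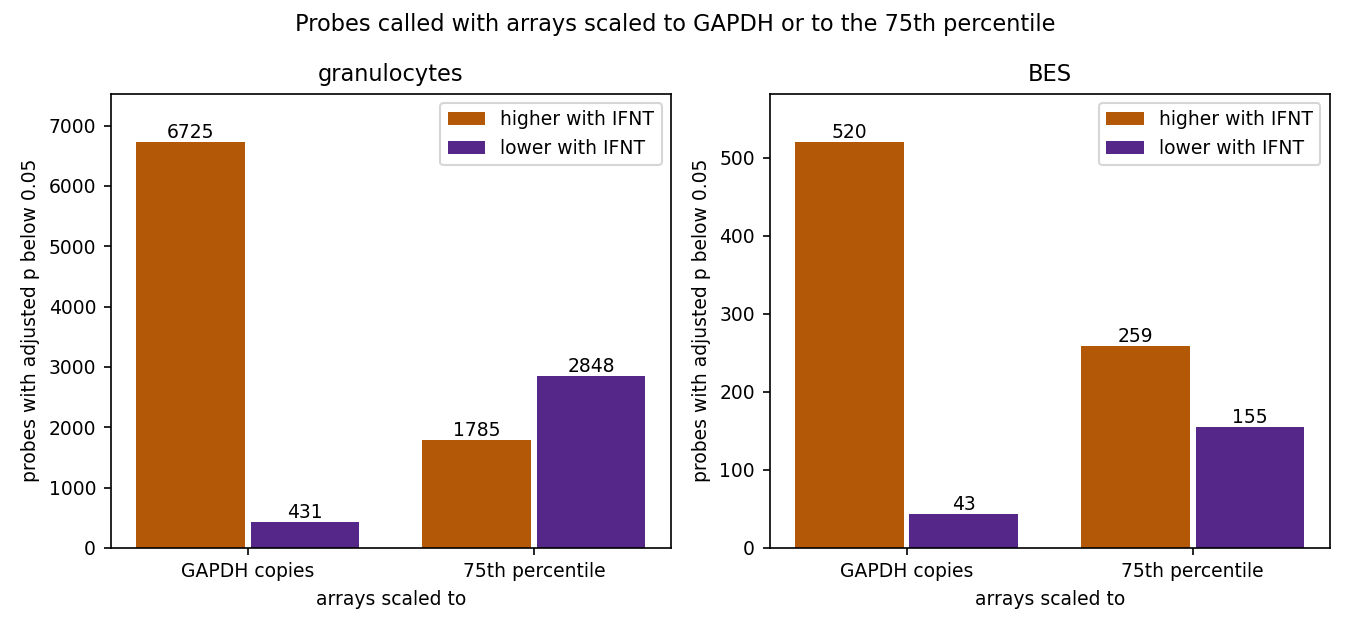
Number of probes called (limma, adjusted p below 0.05) as higher or lower with IFNT in granulocytes (left) and BES (right), with arrays scaled to the mean of the 100 GAPDH copies or to the 75th percentile. With the GAPDH base 6725 of the 7156 called probes are higher in granulocytes, against 1785 of 4633 with the 75th percentile.

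The genes whose levels ran most like each member over the 14 arrays were taken from 3750 genes that were well above background on all of them. They were picked on these same arrays, so a treatment difference that they share with a member is partly built in. The p-values of such differences are no separate evidence. GAPDH ran most like EXOSC3 (r = 0.966), CXCL5 (0.966) and PNP (0.958), and r stayed at 0.944 to 0.952 after each cell type's mean was removed. CXCL5, a chemokine that attracts neutrophils, fell by 0.72 in granulocytes (SE 0.05) and PNP, purine nucleoside phosphorylase, by 1.49 (SE 0.09), as GAPDH did by 0.30. In BES they differed by −0.05 ± 0.06 and −0.16 ± 0.08, neither called. PGK1 had weaker counterparts, TMEM79, OTUB1 and STXBP2 (0.871, 0.821 and 0.768).

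GPI ran most like NUP85 (0.989), TCN2 (0.979) and POFUT2 (0.967), with 0.968, 0.954 and 0.889 after removal of the cell means. Their probes held 33, 32 and 33 G or C bases, against 33 for GPI. In BES TCN2, which carries vitamin B12, fell by 0.72 (SE 0.11, adjusted p 0.0211), and NUP85 and POFUT2 differed by −0.55 ± 0.11 each (adjusted p 0.0542 and 0.0523). The dips of GPI on PBS replicate 3 of both cell types were shared by all 3 genes, which were picked for running like GPI on these arrays. LDHA ran most like TBPL1, C3H1orf52 and LRRC51 (0.983 to 0.984), but 1297 of the 3750 genes correlated with it above 0.9, and r was 0.644 to 0.686 after the cell means were removed. All of these coefficients are descriptions over 14 arrays that share 2 slides, and the treatment differences of genes picked by them add no separate evidence.

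**Figure D5:**
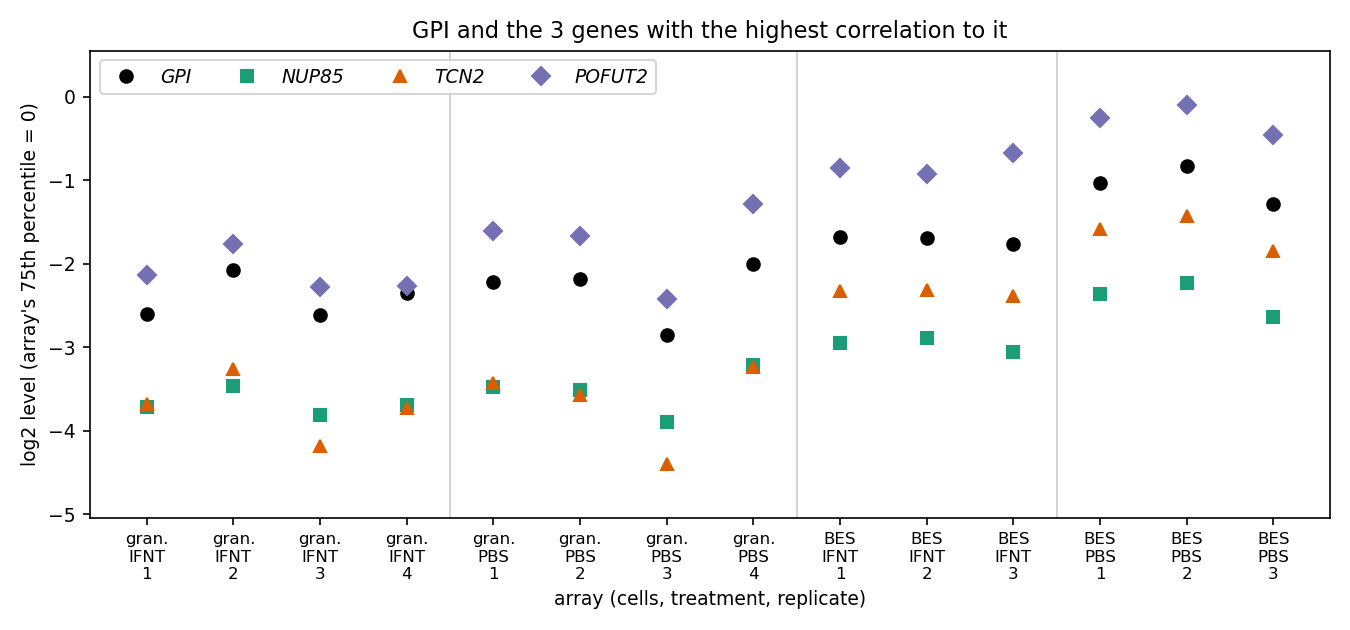
Log2 level of GPI and of the 3 genes with the highest correlation to it on each array, the array's 75th percentile being 0. In BES all 4 genes are lower on the 3 IFNT arrays than on the 3 PBS arrays, and in granulocytes the groups overlap, with PBS replicate 3 the lowest of the PBS arrays.

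Among the members themselves, r over the 14 arrays ranged from −0.79 (GPI and LDHA) to 0.65 (GAPDH and PGK1). After removal of the cell means the highest was again that of GAPDH and PGK1, at 0.63, and the lowest that of GAPDH and GPI, at 0.11. These too are descriptions with no test.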

How the data were processed

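Per the labels, total RNA of each sample was amplified, labelled with Cy3 and hybridised to 1-colour arrays. The extraction label names granulocytes alone. The deposited scanner files hold intensity per spot from Agilent Feature Extraction 9.5, per the submitters' processing notes, as a processed signal already corrected for background. A deposited value table gives log2 values, which equal the log2 processed signal minus 1 constant per array, with no centring of probes and column medians from −3.42 to −3.23.

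Processed signals were taken to log2 and set relative to the array's 75th percentile over 15208 non-control probes. Outlier spots were dropped. Probes entered a test if well above background on at least 3 BES or 4 granulocyte arrays. Tests used limma 3.58.1 (R 4.3.3, two-sided, Benjamini-Hochberg adjustment over all probes tested, threshold 0.05), with 1 fit per cell type, and 1 fit over all 14 arrays for contrasts across cell types. The fits were tested on simulated data. The number of arrays limits the precision of every value. No set of genes was tested as a set: lists are given as counts and medians.

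The members and lists were chosen with earlier results of these data known. Some list genes are not reported here and enter no list count. Named were the members, in each list up to 4 tested genes with the smallest p, and the 3 genes most like each member. Of the interferon-stimulated genes RSAD2 was named. Symbols came from the files and the RefSeq gene table of ARS-UCD2.0: 6098 probes received one and 9110 did not. Background correction, scaling, the filter, moderation, replicate block, array row and single arrays were varied.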

Additional observations from a re-analysis of the deposited data

Results flagged for a closer look

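The GAPDH level of granulocytes with IFNT replicate 2 (5.85) stood apart from the other 3 arrays of its group (5.78 to 5.79). Its gap to the nearest of them was 0.858 of the group's range, above Dixon's critical value at the 95% level for 4 samples. Chance marks about 1 in 20 groups in this way. Without that array the fall of GAPDH in granulocytes was −0.32 (adjusted p 0.00274).

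The response of GAPDH to IFNT differed between the cell types by −0.25 in granulocytes minus BES, by a test of the difference itself (limma, adjusted p 0.00852). It was kept in all 14 fits that left out 1 array (−0.27 to −0.22, adjusted p up to 0.0228). The probe ABR7083 gave −0.18 (limma, adjusted p 0.0775). Scaled to the 100 GAPDH copies the contrast for ABR336 was 0.024 (limma, adjusted p 0.809). That base is GAPDH itself and takes out any difference its probes share, so it cannot show whether the responses differed. Cell type coincides with slide, so the difference between slides and the difference between cell types cannot be told apart.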

How the results depend on the processing

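The fall of GAPDH in granulocytes kept its call with every other setting tried (−0.38 to −0.27) except scaling to its own copies. That scaling takes GAPDH as its base and cannot show such a fall. Called probes in BES, 414 here, were 189 with no filter on dim probes, 1011 with a trended robust prior, 149 with array row as a covariate and 199 to 625 without single arrays (625 without PBS replicate 3). GPI in BES was −0.67 with no filter and with all 14 arrays fitted, −0.43 with array row and −0.78 to −0.56 without single arrays, none past the threshold except without PBS replicate 3. In granulocytes GPI was −0.27 to 0.011 without single arrays, and PGK1 passed with all 14 arrays (−0.13). The contrast between responses ran from −0.038 to 0.042 for PGK1 and −0.077 to 0.020 for LDHA without single arrays, and for PGK1 was 0.00016 with the 75th percentile of detected probes and 0.059 with quantile normalization. In granulocytes minus BES with PBS, median scaling, the percentile of detected probes and quantile normalization gave −0.10, −0.11 and −0.46 for PGK1, and the last gave −0.69 for GAPDH and −0.50 for LDHA. With IFNT, GAPDH was −0.0063 with normexp, and those scalings gave −0.12, −0.12 and −0.97 for GAPDH, −0.11, −0.11 and −0.40 for PGK1 and, for quantile normalization, −0.53 for LDHA. Scaling to the GAPDH copies, chosen after seeing the data, gave 7156 called probes in granulocytes. It gave 0.056 for GAPDH and 0.072 for LDHA in BES, 0.081 for GAPDH, 0.29 for GPI, 0.33 for LDHA and 0.25 for PGK1 in granulocytes, and 0.024, 0.85, 0.26 and 0.28 for their contrast between responses. In granulocytes minus BES it gave 0.15 for PGK1 with PBS, and 0.42, −0.32 and 0.43 for GAPDH, GPI and PGK1 with IFNT. It also turned PC (0.019), PCK2 (0.066) and YWHAZ (0.0024) in BES, and G6PC3 (0.14), SLC2A6 (0.027), SLC2A1 (0.17), PYGM (0.10), UGP2 (0.31), GYS1 (0.22), PDHX (0.091), PDK2 (0.091), PFKFB2 (0.12), ARNT (0.18), BNIP3L (0.091), NDRG1 (0.16), PGD (0.14), TKT (0.31), TALDO1 (0.34) and SDHA (0.15) in granulocytes. In BES, GYG1 was −0.030 and PYGM −0.0031 with normexp, PYGM −0.0071 with median scaling and PCK2 0.055 with array row. Without single arrays PYGM (−0.055 to 0.10) and GYG1 (−0.0074 to 0.058) in BES, and TALDO1 (−0.082 to 0.033) and PFKFB3 (−0.089 to 0.30) in granulocytes, also crossed 0. Samples with the same replicate number did not all deviate together (r 0.047, 0.059 and −0.013 in BES; 0.144, 0.185, 0.203 and −0.118 in granulocytes), so numbers were not taken as pairs. With the replicate block 318 probes were called in BES, 4674 in granulocytes and 3147 for the contrast between responses. GPI in BES kept its call with the block (−0.67, adjusted p 0.0442), as did GAPDH in granulocytes (adjusted p 0.00546). The causes of these changes were not tested. All member levels were well above background.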
